A study of Mus musculus with 6 samples.

Results

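The pore-forming subunits of the neuronal voltage-gated calcium channels were examined in whole hippocampus of mice with and without a Ptchd1 mutation. The 8 genes, Cacna1a, Cacna1b, Cacna1c, Cacna1d, Cacna1e, Cacna1g, Cacna1h and Cacna1i, were taken by name from a table of 25785 gene names, and all 8 were among the 15717 genes with enough signal to be tested. They fill 28 transcript rows of that table, and for each gene the row with the highest mean over the 6 libraries was used. Total RNA depleted of ribosomal RNA had been sequenced from 3 PTCHD1 mutant and 3 wild-type (WT) hippocampi of postnatal day 30, all of the strain that the labels write C57B1/6J. The labels name neither the allele nor the sex of the mice, nor do they say that each library is a separate animal. The p-values therefore describe variation among libraries, some of which may be technical. Replicate numbers follow the order of deposit and pair no samples.

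Each of these genes encodes the large subunit that forms the pore, senses voltage and selects calcium. The subunits are grouped by the current they carry. L-type channels (Cacna1c, Cacna1d) open on strong depolarization and couple activity to gene expression. P/Q-type (Cacna1a) and N-type (Cacna1b) channels sit at the active zone of presynaptic terminals and trigger transmitter release. The R-type channel (Cacna1e) acts in dendrites, spines and some terminals, and T-type channels (Cacna1g, Cacna1h, Cacna1i) open on weak depolarization and drive burst firing. Beta and alpha2delta subunits bind the high-voltage-activated pores and carry them to the membrane.

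Values are the deposited normalized signal divided by the inferred read length of 42 bases, called here normalized read equivalents. Summed over 1 row per gene, the 6 libraries held 12450000 to 23750000 read equivalents before normalization, and signal outside these rows is not included. Before normalization, a pore gene had between 435 (the lowest value of Cacna1g) and 17030 (the highest value of Cacna1e) read equivalents in a library, so relative counting error is largest for Cacna1g. Ptchd1, the mutated gene, had 181, 150 and 130 normalized read equivalents in mutant libraries, against 323, 389 and 411 in WT libraries, which is 41.0% of the WT level. Its log2 change of -1.28 ± 0.14 (SE) had a limma adjusted p of 0.0342, and it was the only gene of the table past the threshold of 0.05 (0.00636% of genes tested). Without mutant 2, WT 1 or WT 3 its limma adjusted p was 0.223, 0.0644 and 0.371. The defining markers of hippocampal excitatory neurons summed to 47762 to 50998 in mutant libraries and 41597 to 45231 in WT libraries, with 6 of 7 above a log2 change of 0. The choroid plexus markers summed to 1159 to 2803 in mutant libraries and to 792 to 54439 in WT libraries, where WT 1 and WT 3 were high and WT 2 was lowest. Of these markers 0 of 8 were above a log2 change of 0, and their median was -2.30. Oligodendrocyte markers summed to 57157 to 72118 in mutant libraries and to 67336 to 78508 in WT libraries, with 1 of 7 above 0. Astrocyte markers summed to 25714 to 26835 in mutant libraries and to 27252 to 28157 in WT libraries, with 1 of 5 above 0. GABAergic interneuron markers summed to 12506 to 13173 in mutant libraries and to 11484 to 12413 in WT libraries, with 6 of 8 above 0. The sums of microglia and of smooth muscle and pericyte markers overlapped between the groups. Over all genes tested, 46.8% were above 0. The part of these cell types in the values of the pore genes was not tested. In a whole tissue, fewer cells of a type and less RNA per cell cannot be told apart.

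All 8 pore genes had a log2 change above 0, as did 46.8% of all genes tested. For 7 of the 8 every mutant library lay above every WT library, beside 12.3% of genes tested, and Cacna1d was the exception. The median log2 change over the 8 genes was 0.23, against -0.016 over all genes tested, and single genes ran from 0.063 for Cacna1d to 0.40 for Cacna1i. No pore gene passed limma's adjusted threshold, their adjusted p-values running from 0.109 to 0.682 (0% of genes tested were called higher). At an unadjusted limma p under 0.05, 6 of the 8 were higher, beside 9.01% of genes tested. The authors' deposited p-values, adjusted over the same genes, put 5 of the 8 under 0.05 (Cacna1a, Cacna1b, Cacna1e, Cacna1g and Cacna1i), beside 4.57% of genes tested. An exact permutation test of 3 against 3 libraries cannot give a p below 0.1, and every pore gene except Cacna1d (exact p = 0.5) was at that limit.

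**Figure D1:**
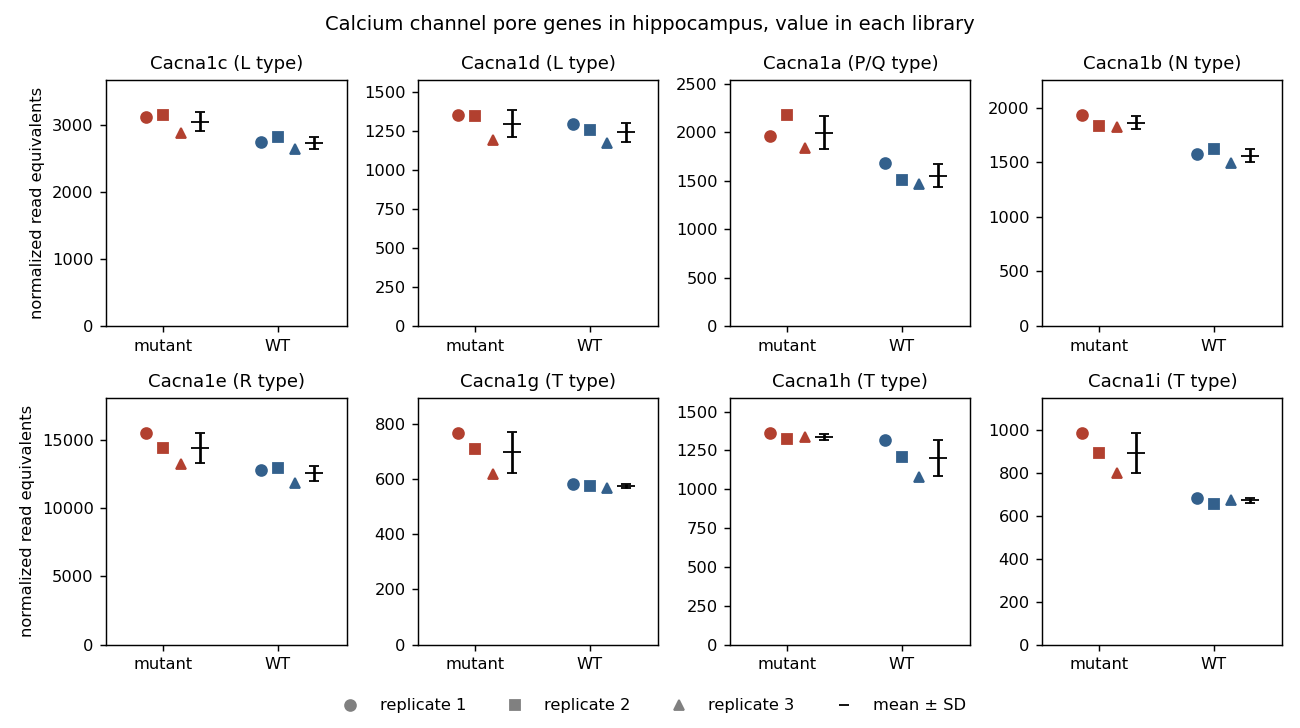
Normalized read equivalents (vertical axes, starting at 0) of the 8 pore genes, with 3 mutant libraries in red left of 3 WT libraries in blue; each symbol is a library and black bars are mean ± SD. The groups are separated in 7 panels and overlap for Cacna1d, and the separation for Cacna1h is narrow.

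The P/Q-type gene Cacna1a, whose channel drives much of the fast release at central synapses, had 1959, 2176 and 1839 normalized read equivalents in mutant libraries, against 1681, 1504 and 1464 in WT libraries. The lowest mutant library stood clear of the highest WT library. Its fitted level in mutants was 128% of that in WT (95% interval 113 to 146%), a log2 change of 0.36 ± 0.08 (SE) with a limma adjusted p of 0.109. Mutant 2 held its highest value, and without that library the log2 change was 0.29.

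The N-type gene Cacna1b, the other main pore of presynaptic terminals, had 1936, 1833 and 1828 normalized read equivalents in mutant libraries, against 1574, 1620 and 1495 in WT libraries. Both groups were tight and well apart. The fitted ratio was 119% (95% interval 108 to 132%), a log2 change of 0.26 ± 0.06 (SE) with a limma adjusted p of 0.120.

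Cacna1e, the R-type pore, had 15474, 14437 and 13246 normalized read equivalents in mutant libraries, against 12819, 12922 and 11869 in WT libraries. Mutant 3 was close to WT 1 and WT 2, and mutant 1 was well above them. The ratio was 115% (95% interval 103 to 128%), a log2 change of 0.20 ± 0.07 (SE) with a limma adjusted p of 0.190.

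The 3 T-type genes ran from a log2 change of 0.16 to 0.40. Cacna1i, known for its expression in thalamic reticular neurons, had 984, 891 and 800 normalized read equivalents in mutant libraries, against 683, 657 and 675 in WT libraries. Its ratio of 132% (95% interval 116 to 151%), a log2 change of 0.40 ± 0.09 (SE), was the highest of the 8 genes, with a limma adjusted p of 0.109. Cacna1g, the pore of thalamic relay cell bursting, had 764, 707 and 616 in mutant libraries, against 582, 573 and 567 in WT libraries. For both genes the WT libraries were tightly grouped and the mutant libraries were spread out, mutant 3 being close to the WT libraries for Cacna1g. The ratio of Cacna1g was 121% (95% interval 105 to 139%), a log2 change of 0.27 ± 0.09 (SE) with a limma adjusted p of 0.159. Cacna1h, which also carries T-type current in sensory neurons, had 1359, 1320 and 1333 in mutant libraries, against 1315, 1207 and 1079 in WT libraries. Only a few read equivalents lay between mutant 2 and WT 1, and it was the WT libraries that were spread out. Its ratio was 112% (95% interval 98.9 to 126%), a log2 change of 0.16 ± 0.08 (SE) with a limma adjusted p of 0.304. Thalamic tissue can add T-type transcripts to a hippocampal dissection, and 9 thalamic markers were examined: their sum ran from 1936 to 3619 in mutant libraries and from 1939 to 2581 in WT libraries. The high thalamic sum was in mutant 2, and Gbx2 was at or near 0 in every library. Of the 8 tested markers 6 were above a log2 change of 0, beside 46.8% of all genes tested. The part of thalamic tissue in the T-type values was not tested.

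The L-type genes had the lowest log2 changes of the 8, that of Cacna1c being close to that of Cacna1h. Cacna1c, the main L-type pore of brain and heart, had 3123, 3152 and 2885 normalized read equivalents in mutant libraries, against 2741, 2826 and 2646 in WT libraries. The groups were separated by mutant 3 and WT 2, which were close. The ratio was 111% (95% interval 101 to 123%), a log2 change of 0.16 ± 0.06 (SE) with a limma adjusted p of 0.223. Cacna1d, the L-type pore that opens at lower voltages, had 1352, 1346 and 1194 in mutant libraries, against 1292, 1256 and 1175 in WT libraries. Mutant 3 fell among the WT libraries, and the groups overlapped. Its ratio was 104% with a 95% interval of 93.1 to 117%, a log2 change of 0.063 ± 0.075 (SE) with a limma adjusted p of 0.682. That interval includes equal levels, and no difference was detected with these libraries.

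The choice of transcript row altered these values little. The 11 rows of Cacna1c had log2 changes of 0.16 to 0.20, the 4 rows of Cacna1a 0.35 to 0.36, the 4 rows of Cacna1g about 0.27, and the 3 rows of Cacna1d 0.056 to 0.063. Every row of the other 7 genes, and none of Cacna1d, had all mutant libraries above all WT libraries. Rows of a gene share most of their exons and are not independent. The row of Cacna1c with the lowest level had the largest log2 change of its gene, 0.20, and in the authors' deposited table an unadjusted p of 0.00219, against 0.0111 for the row used here.

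Signal followed transcript GC content in some libraries, and a trend with length was not measured per library. The pore transcripts are long, at 6564 to 14921 bases against a median of 2962.5 over all genes tested, and 6 of the 8 have a GC content from 54.1 to 60.0%, against a median of 50.2%. Mutant 1 had signal that ran up with GC content (Spearman 0.43 across genes, which are not independent replicates), and in WT 2 it ran down (-0.48), while the others lay between -0.18 and 0.084. After each library was corrected for both properties, the median log2 change of the 8 genes was 0.068, against -0.022 for all genes tested. In the corrected values 5 of 8 genes were above 0 (44% of genes tested), 1 of 8 had separated groups (9.64%), and 1 of 8, Cacna1i, had an unadjusted limma p under 0.05 (6.94%). Cacna1i was at a corrected log2 change of 0.16 and Cacna1a at 0.15, with 95% intervals of 0.015 to 0.31 and -0.021 to 0.31. Cacna1b and Cacna1e were at 0.079 and 0.081 and Cacna1g at 0.058, and Cacna1c, Cacna1d and Cacna1h turned to -0.012, -0.029 and -0.076. Correction for GC content alone gave a median of 0.18 and for length alone 0.15. With GC content alone 5 of 8 genes had an unadjusted limma p under 0.05 (9.17% of genes tested), and with length alone 4 of 8 (7.93%). Without mutant 1 and WT 2, and with no correction, the median was 0.18 and 5 of 8 genes had an unadjusted limma p under 0.05, beside 5.73% of genes tested. With both properties corrected and those libraries left out, 7 of 8 were above 0 (46.3%). There 2 of 8, Cacna1a and Cacna1b but not Cacna1i, had an unadjusted limma p under 0.05 (4.1%). Which gene passed thus changed with the setting. What part GC content and length have in the difference was not tested.

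**Figure D2:**
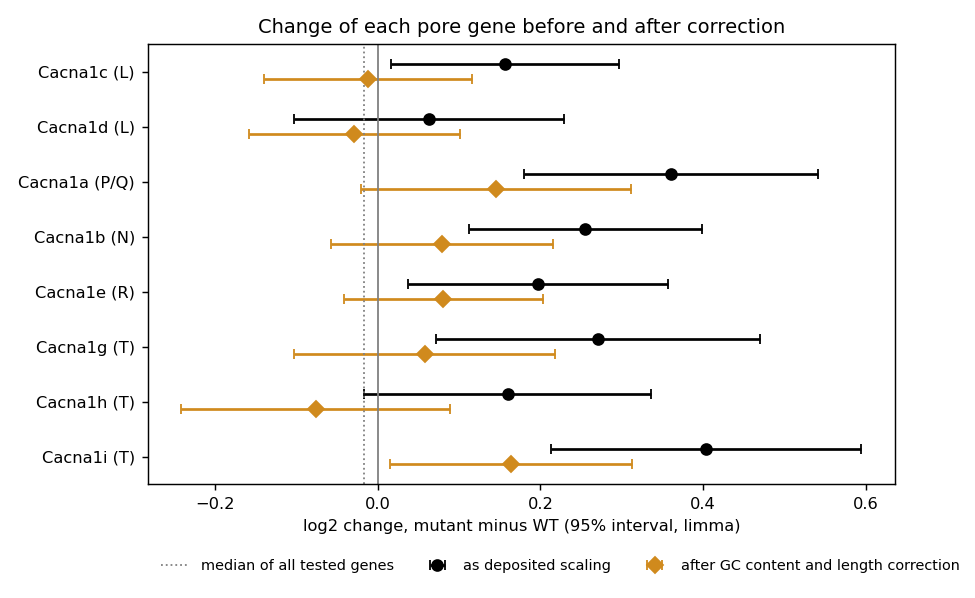
Log2 change in mutants minus WT (horizontal axis) of each pore gene with its 95% limma interval, with the deposited scaling in black and after correction for GC content and length in orange. All 8 corrected values lie closer to 0, with Cacna1c, Cacna1d and Cacna1h below it, and the corrected interval of Cacna1i alone lies wholly above 0.

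The libraries were also unequal within a group. The mean deviation of the 8 genes from their own average, on the log2 scale, was 0.185, 0.145 and 0.019 in mutants 1, 2 and 3, against -0.066, -0.104 and -0.180 in WT 1, 2 and 3. Across the groups mutant 3 and WT 1 were thus the nearest, and mutant 3 held the lowest mutant value of 7 genes. It was also the library with the lowest sum of read equivalents before normalization. With 1 library left out at a time, all 8 log2 changes were above 0 in each of the 6 repeats, and between 4 and 6 genes had an unadjusted limma p under 0.05, beside 5.85 to 9.91% of genes tested. Cacna1a, Cacna1b, Cacna1g and Cacna1i were among them each time. The range was 0.29 to 0.42 for Cacna1a, 0.33 to 0.48 for Cacna1i, 0.22 to 0.28 for Cacna1b, 0.20 to 0.36 for Cacna1g and 0.14 to 0.25 for Cacna1e. Cacna1h moved between 0.086 without WT 3 and 0.23 without WT 1, and Cacna1d between 0.024 without WT 3 and 0.12 without mutant 3.

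**Figure D3:**
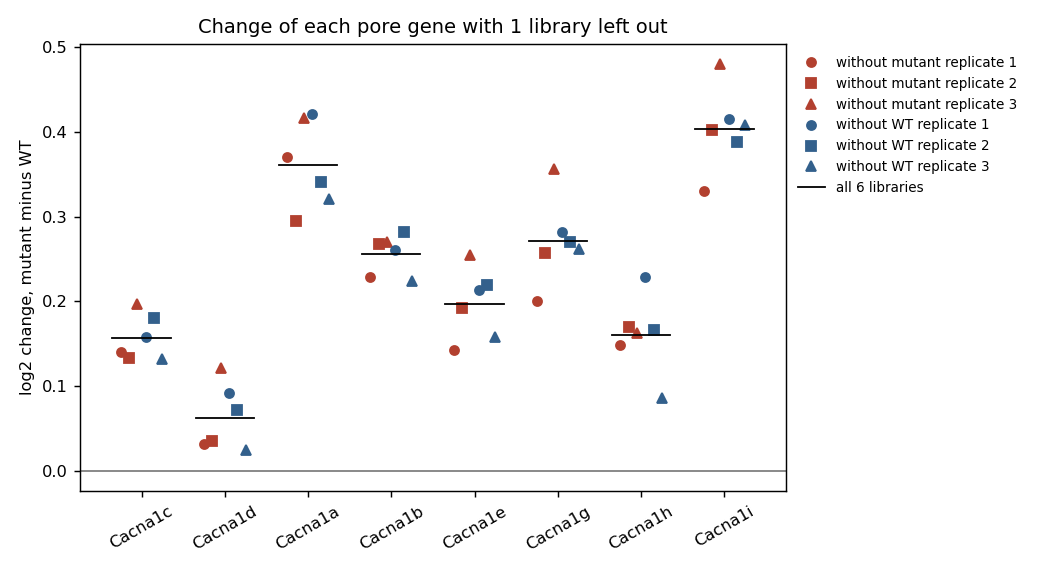
Log2 change in mutants minus WT (vertical axis) of each pore gene when 1 library is left out, with red symbols for a mutant library left out, blue for a WT library left out, and the black line for all 6 libraries. No point lies below 0, and the largest movement for Cacna1g and Cacna1i comes with mutant 1 or mutant 3 left out.

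To compare levels between genes, values were divided by transcript length. Cacna1e averaged 964 ± 74.7 normalized read equivalents per kb in mutants and 840 ± 38.9 in WT (SD, n = 3 each), the highest of the 8 genes in every library. With the transcript lengths used, Cacna1c came next at 400 ± 19.2 per kb in mutants and 359 ± 11.8 in WT. Cacna1b (267 ± 8.73 in mutants, 224 ± 9.06 in WT), Cacna1a (251 ± 21.6 in mutants, 196 ± 14.6 in WT) and Cacna1d (198 ± 13.6 in mutants, 189 ± 9.07 in WT) lay near each other. The order of these 3 and the place of Cacna1c above them depend on which matched transcript length is used, since the per-kb mean of Cacna1c over its rows ran from 210 to 442, that of Cacna1b from 176 to 245 and that of Cacna1d from 139 to 195. Cacna1h had 163 ± 2.41 per kb in mutants and 146 ± 14.4 in WT. Cacna1i (91.2 ± 9.41 in mutants, 68.7 ± 1.34 in WT) and Cacna1g (85.6 ± 9.19 in mutants, 70.7 ± 0.954 in WT) were lowest. With the rows used, Cacna1i was above Cacna1g in all 3 mutant libraries and below it in all 3 WT libraries. In WT 3 they were nearly equal, at 69.0 for Cacna1i and 69.8 for Cacna1g. The order in WT 3 depends on which row of Cacna1g is used.

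As a share of the summed per-kb signal of the 8 genes, L-type genes made up 24.3, 25.1 and 24.8% in mutant libraries, against 25.8, 26.3 and 26.4% in WT libraries, and the groups did not overlap. With the longest matched transcript of each gene in place of the one used, the L-type mean was 17.9% in mutants and 19.1% in WT, again without overlap. P/Q-type shares were 9.74, 11.2 and 10.3% in mutant libraries, against 9.85, 8.89 and 9.28% in WT libraries, which overlap. R-type signal was the largest share, at a mean of 39.8% in mutants and 40.1% in WT. N-type (11.1% in mutants, 10.7% in WT) and T-type (14.0% in mutants, 13.6% in WT) shares overlapped between the groups. With the R-type left out of the sum, P/Q-type shares had a mean of 17.3% in mutants and 15.6% in WT, without overlap, and L-type shares were again lower without overlap. Shares of a library add to a whole, so a lower L-type share goes with higher shares of other types, and which type moved cannot be told apart from shares. Of 4 ratios within a library that were chosen after the values were seen, Cacna1i over Cacna1g was 1.29, 1.26 and 1.30 in mutant libraries, against 1.17, 1.15 and 1.19 in WT libraries. Cacna1a over Cacna1d was 1.45, 1.62 and 1.54 in mutant libraries, against 1.30, 1.20 and 1.25 in WT libraries. Cacna1c over Cacna1d was also separated, whereas Cacna1a over Cacna1b overlapped. These shares and ratios use values not corrected for GC content and length, and were not recomputed after correction. The corrected log2 changes were 0.15 for Cacna1a, -0.012 for Cacna1c, -0.029 for Cacna1d, 0.058 for Cacna1g and 0.16 for Cacna1i.

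**Figure D4:**
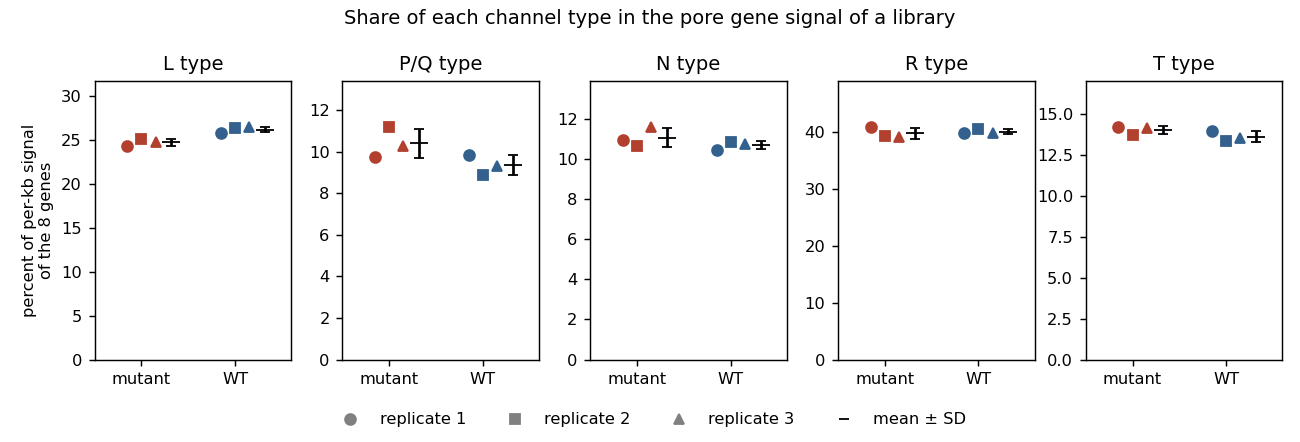
Share of each channel type (percent of the summed per-kb signal of the 8 genes, vertical axes from 0) in 3 mutant libraries, red, and 3 WT libraries, blue, with mean ± SD in black. Only the L-type shares do not overlap, with means of 24.7% in mutants and 26.2% in WT.

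Start-site windows of 300 bases (250 before and 50 after the start, RefSeq, build GRCm38.p6) were found for 5 of the 8 genes, in 8 windows. The 3 genes with a single window are shown, since they are among the 5 under the threshold with the authors' p-values and 1 of them, Cacna1b, is listed with REST elements in the authors' tables. The Cacna1i window is chr15:80286988-80287287 on the plus strand, the Cacna1b window chr2:24763103-24763402 on the minus strand and the Cacna1e window chr1:154725871-154726170 on the minus strand, each read 5′ to 3′ on the gene's strand. Capitals mark a GC box, the letters GGGCGG on either strand.
Cacna1i: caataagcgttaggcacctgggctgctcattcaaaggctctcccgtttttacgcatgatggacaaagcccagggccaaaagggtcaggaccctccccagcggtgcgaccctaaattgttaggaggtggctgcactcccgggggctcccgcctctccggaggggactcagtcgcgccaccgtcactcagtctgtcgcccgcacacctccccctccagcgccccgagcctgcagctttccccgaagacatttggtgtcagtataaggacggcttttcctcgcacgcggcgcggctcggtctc
Cacna1b: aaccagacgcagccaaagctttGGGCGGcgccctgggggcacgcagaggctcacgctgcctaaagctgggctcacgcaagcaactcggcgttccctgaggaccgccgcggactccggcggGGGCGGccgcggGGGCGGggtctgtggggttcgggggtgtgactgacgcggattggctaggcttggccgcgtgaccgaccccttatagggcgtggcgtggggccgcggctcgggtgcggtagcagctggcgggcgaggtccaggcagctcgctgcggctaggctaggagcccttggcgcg
Cacna1e: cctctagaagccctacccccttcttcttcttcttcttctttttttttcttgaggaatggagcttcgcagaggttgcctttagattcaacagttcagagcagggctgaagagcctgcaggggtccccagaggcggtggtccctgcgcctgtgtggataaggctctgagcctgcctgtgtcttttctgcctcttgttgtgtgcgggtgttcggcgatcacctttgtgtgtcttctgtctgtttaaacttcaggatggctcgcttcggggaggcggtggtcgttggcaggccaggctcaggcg
The Cacna1b window has a GC content of 72.3%, 35 CpG and 3 GC boxes, the Cacna1i window 62.7%, 23 CpG and no GC box, and the Cacna1e window 55.3%, 11 CpG and no GC box. Over 32851 windows of the same kind the median GC content was 52.7%, the median CpG number 7, and 35.7% held a GC box. The core of the cyclic AMP response element, TGACG on either strand, was present in the Cacna1b and Cacna1i windows and in 20.8% of all windows, and TATAAA on either strand in none of these 3 and in 13.6% of all windows. Cacna1d, the gene without separated groups, has a window of 87.3% GC with 6 GC boxes and another of 40.3% GC with none. Cacna1c, whose groups are separated, has a window of 81.3% GC with 6 GC boxes and others of 51.3% GC with none. Overlapping matches are counted separately, and most of the GC boxes of Cacna1c and Cacna1d overlap within a GGGCGG repeat. They are not as many distinct elements. These matches are letters in a window and show no binding.

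In the authors' deposited table of ontology terms over the genes they called higher, voltage-gated calcium channel complex had a fold enrichment of 7.07 and a Bonferroni-corrected p of 0.00526. It lists 11 genes, among them Cacna1a, Cacna1b, Cacna1c, Cacna1e and Cacna1g. In the same deposited table, voltage-gated calcium channel activity had a fold of 6.30 (corrected p 0.0187) and lists 6 pore genes, Cacna1i being the sixth. The term for low-voltage-gated channels lists Cacna1g and Cacna1i, with a corrected p of 1 in the authors' deposited table. Cacna1d and Cacna1h are in none of its 7551 terms. In the authors' deposited motif table the REST element NRSE had a fold enrichment of 6.53 over 29 genes, and Cacna1b was the pore gene among them. REST represses neuronal genes in non-neuronal cells. In the authors' deposited binding table, 245 genes bound by SUZ12, a Polycomb subunit, in neural progenitor cells had a fold of 2.14 and include Cacna1a, Cacna1b, Cacna1e, Cacna1g and Cacna1i. That experiment is labelled RESTWT. Another SUZ12 experiment in neural progenitor cells, labelled RESTKO, had a fold of 2.04 over 191 genes. Of the pore genes it lists only Cacna1e, Cacna1g and Cacna1i. The gene list behind these tables was chosen on these 6 libraries, so they are not independent evidence of direction.

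Genes that work with the pores were counted from lists of their families, with no gene called by limma's adjusted p in any of them. All 4 beta subunits were above a log2 change of 0 (46.8% of all genes tested), 2 with separated groups (12.3% of all genes tested), and the median was 0.15. Cacnb1, which traffics pores to the membrane, had 1491, 1263 and 1199 normalized read equivalents in mutant libraries, against 1124, 1059 and 1085 in WT libraries (log2 change 0.27 ± 0.09 SE, limma adjusted p 0.151). Cacnb4 and Cacnb3 had log2 changes of 0.14 and 0.16 with overlapping groups. With GC content and length corrected Cacnb1 was at 0.13, Cacnb4 at 0.22 and Cacnb3 at 0.055. The 4 alpha2delta subunits, the family to which the gabapentin targets belong, had a median of 0.059. None had separated groups, beside 12.3% of all genes tested with every mutant library above every WT library. Cacna2d2 had the highest log2 change of these, 0.34 ± 0.11 (SE, limma adjusted p 0.169), with 480, 493 and 403 in mutant libraries against 417, 333 and 342 in WT libraries, while Cacna2d3 and Cacna2d1 were at 0.083 and 0.035. After the correction Cacna2d2 was at 0.17.

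Of 8 gamma subunits and TARPs, which mostly carry AMPA receptors to synapses, 6 were tested, and 5 were above 0 and 3 had separated groups, beside 46.8% and 12.3% of all genes tested, with a median of 0.25. Cacng3 had 711, 625 and 552 normalized read equivalents in mutant libraries, against 437, 380 and 466 in WT libraries. This was a log2 change of 0.55 ± 0.11 (SE) with a limma adjusted p of 0.109. Cacng2, or stargazin, had 369, 482 and 429 in mutant libraries, against 342, 325 and 293 in WT libraries (log2 change 0.41 ± 0.11 SE, limma adjusted p 0.131), and Cacng4 was at 0.30. After the correction these 3 were at 0.49, 0.31 and 0.21. Cacng1 and Cacng6 were too low to be tested, as were the retinal pore Cacna1f (mean 6.54) and the skeletal muscle pore Cacna1s (mean 8.79).

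The active zone proteins that hold presynaptic pores near vesicles were counted next. All 10 tested were above 0 (46.8% of all genes tested), 6 had separated groups (12.3%) and 5 had an unadjusted limma p under 0.05 (9.01%), with a median of 0.27. Bsn, a scaffold of the active zone, had 6451, 5801 and 4899 normalized read equivalents in mutant libraries, against 4211, 3535 and 3841 in WT libraries, a log2 change of 0.56 ± 0.10 (SE) with a limma adjusted p of 0.109. Pclo, its large partner scaffold, was at 0.40 ± 0.08 (SE, limma adjusted p 0.109) and Rimbp2, which ties pores to release sites, at 0.35 ± 0.09 (SE, limma adjusted p 0.120). Corrected for transcript GC content and length, these 3 were at 0.29, 0.32 and 0.23, and the median of the list at 0.18. In corrected values 5 of the 10 had an unadjusted limma p under 0.05, beside 6.94% of genes tested.

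The intracellular release channels, the ryanodine and inositol trisphosphate receptors, had 3 of 6 above 0 (46.8% of all genes tested) and a median of 0.030. None had separated groups, beside 12.3% of all genes tested with every mutant library above every WT library. Ryr2, Itpr2 and Ryr1 were at 0.079, 0.073 and 0.065, and at -0.063, -0.056 and -0.18 after correction. Of 13 channel regulators 11 were tested, with a median of -0.049 and 5 above 0. Gem, a small GTPase that inhibits calcium channels, had 40.4, 55.6 and 48.1 normalized read equivalents in mutant libraries, against 64.7, 76.9 and 72.6 in WT libraries (log2 change -0.57 ± 0.18 SE, limma adjusted p 0.149). It was the 1 regulator of the 11 tested with every mutant library below every WT library. The share of all genes separated in that direction was not counted. Stac2, an adaptor of L-type channels, was at 0.39 and Akap5, which anchors kinases to them, at 0.18. Both had every mutant library above every WT library, as did 12.3% of all genes tested. The sodium leak channel complex had a median of 0.079, with its subunits Unc79 and Unc80 at 0.21 and 0.12 and its pore Nalcn at 0.043. After the correction the median was 0.015, with Unc79 at 0.084, Unc80 at 0.0068 and Nalcn at 0.024.

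**Figure D5:**
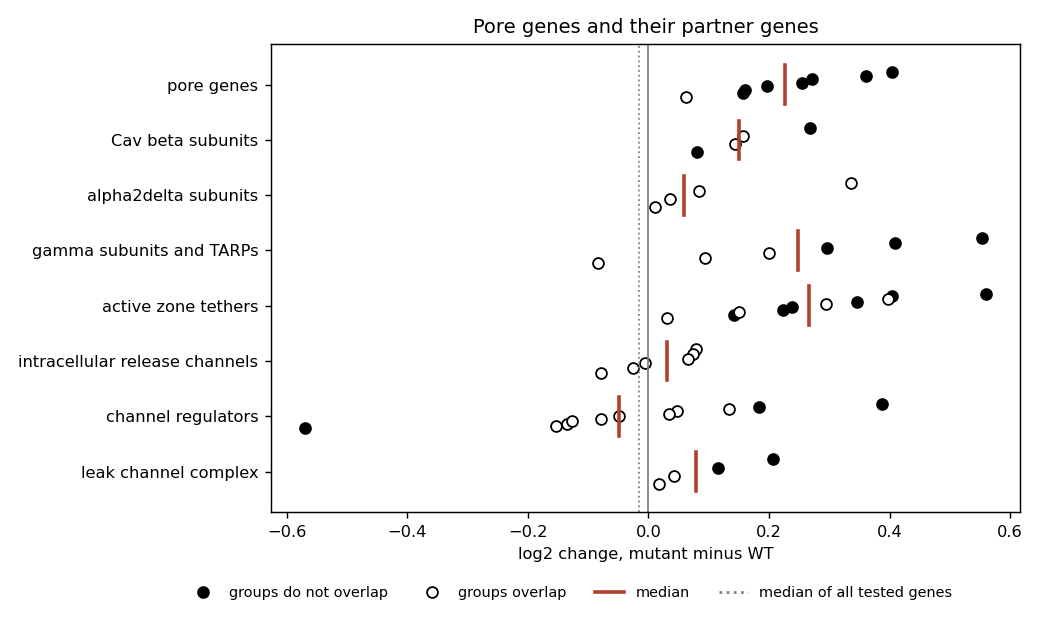
Log2 change in mutants minus WT (horizontal axis) of each tested gene in the pore family and in 7 families of partner genes, filled where the groups do not overlap, with the family median in red and the median of all genes tested dotted. The medians of pore genes (0.23), gamma subunits (0.25) and active zone tethers (0.27) lie to the right of the intracellular release channels (0.030) and regulators (-0.049).

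The 3 genes whose profile over the 6 libraries was most like the mean profile of the pore genes, among 13137 genes with a mean of at least 50, were Tanc2 (Pearson r 0.998), Ep300 (0.996) and Tmem131 (0.994). Tanc2 encodes a postsynaptic scaffold, and had a log2 change of 0.24 ± 0.06 (SE, limma adjusted p 0.129). Ep300, a histone acetyltransferase, was at 0.21 ± 0.07 and Tmem131 at 0.23 ± 0.07 (limma adjusted p 0.154 and 0.147). These r are over 6 libraries that also share the group difference and the GC trend, and are given as a description.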

How the data were processed

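The deposited main table holds 35477 transcript rows with 6 columns of normalized signal, which the authors scaled between libraries. Per the submitters' processing notes, GSNAP, DESeq2 and mm9 were used, without versions or settings. Per the labels' protocols, 2000 ng of RNA went into stranded single-end libraries, 4 to a lane. Every value was a whole multiple (tolerance 0.01) of a library step of 0.759 to 1.42, with multiples piling up at 42, 84 and 126, and was read as base coverage. No source states this, so no count model was run and read equivalents rest on it. The authors also deposited an unadjusted p-value and a signed score per row, and tables with a fold enrichment, a p-value or a score per term.

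Genes with a mean of at least 10 were tested on log2(value + 1), which understates changes of low genes, with limma 3.58.1 in R 4.3.3 (mean-variance trend, two-sided, Benjamini-Hochberg over 15717 genes, threshold 0.05). GC content and length came from GENCODE M21 transcripts (GRCm38) for 98.2% of tested genes, and the correction subtracted splines of 5 degrees of freedom each per library. The test and correction were run on simulated data, with changes larger in size than those of the pore genes. Detection at the size of the pore gene changes was therefore not tested. The simulated library trend was in GC content and not in length. Named genes were the 8 pore genes, Ptchd1, up to 3 per family list by smallest unadjusted p, and the 3 most alike profiles. Members, lists and rules were chosen with earlier results of these data known. The alternatives were other pseudocounts, filters, scalings, corrections, variance models, rows and left-out libraries.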

Additional observations from a re-analysis of the deposited data

How the results depend on the processing

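No pore gene passed the adjusted limma threshold under any other pseudocount, filter, scaling, correction, row choice or left-out library, and all 8 stayed above 0 under every other pseudocount, filter and scaling. The exceptions were library quality weights, which called 3 (Cacna1a, Cacna1b and Cacna1i) and, of all 15717 genes, 462 higher and 343 lower, the authors' deposited p-values, which called 5, and no adjustment, which called 6. Leaving out 1 library at a time gave 0 calls each time and a median log2 change of 0.17 to 0.26, against 0.23 with all 6. The median was 0.068 after GC content and length correction, 0.074 with that correction and without mutant 1 and WT 2, and 0.15 after length correction alone, the last 2 settings and GC content correction alone being chosen after the data were seen. Signs turned under GC content and length correction for Cacna1c (-0.012), Cacna1d (-0.029), Cacna1h (-0.076), Ryr2 (-0.063), Itpr2 (-0.056) and Ryr1 (-0.18), and under GC content correction alone for Ryr1 (-0.028). They turned under length correction alone for Cacna1d (-0.00084), Ryr2 (-0.016), Itpr2 (-0.0027), Ryr1 (-0.028) and Nalcn (-0.026). With the correction and without mutant 1 and WT 2 they turned for Cacna1d (-0.029), Cacnb3 (-0.0062), Itpr2 (-0.0069), Ryr1 (-0.012) and Nalcn (-0.029). Nalcn turned under quality weights (-0.014), and with 1 library left out it ranged from -0.033 (without mutant 1) to 0.099, also turning without WT 1 (-0.016). Cacna2d1 ranged from -0.014 (without WT 1) to 0.090. The cause was not tested. Ptchd1 kept its direction but lost its call in 8 settings, with adjusted limma p-values there of 0.0556 to 0.371. No paired analysis was possible because replicate numbers follow the order of deposit and the labels share none between the groups. With 3 libraries a group, no difference was detected for Cacna1d. Whether a change of that size could be detected was not tested.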
